A study of Rattus norvegicus with 18 samples.

Results

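Potassium channel genes are described here in the C6-C8 dorsal root ganglia (DRG) of 18 adult Lister hooded rats, as read from poly(A) RNA. The members are all rows of the count table whose RefSeq symbol begins with Kcn, the prefix of the genes for potassium channel pore and auxiliary subunits. They comprised 89 of 15075 rows and 86 symbols, since Kcnc2, Kcnk2 and Kcnk18 each had 2 rows. Rows of the table without a matched symbol (882) could not be searched by this rule. No potassium channel gene passed an adjusted test between naïve rats and either injured group, or between the injured groups. Before adjustment, 4.29% of Kcn rows passed between injured rats with GFP and naïve rats (3.25% of all genes). Between injured rats with NT3 and naïve rats 4.29% passed (6.01% of all genes), and between the injured groups 4.17% (1.73%). Among these, Kcnq5 was higher in both injured groups than in naïve rats, but both comparisons share the same naïve rats. It passed in 12 of 12 fits that left out a single rat with GFP, and in 4 of 12 with NT3. The glial Kcnj10 was higher in injured rats with NT3 than with GFP.

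The 3 groups held 6 rats each. Naïve rats were unoperated and received no vector. Rats of the bPYX+GFP group had both corticospinal tracts cut in the medullary pyramids (bilateral pyramidotomy, bPYX) and then injections into the forelimb flexors of 1 side with AAV1-CMV-EGFP, an adeno-associated virus that expresses green fluorescent protein. Rats of the bPYX+NT3 group had the same injury and, in place of that vector, AAV1-CMV-NT3, which encodes human neurotrophin-3, a growth factor for proprioceptive sensory neurons. The CMV promoter is not restricted to a cell type. DRG of the treated side were pooled within each rat, 10 weeks after injury in both injured groups. Injury, surgery, injection and vector therefore cannot be told apart in either comparison with naïve rats, and the bPYX+NT3 and bPYX+GFP groups differ by the transgene.

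The groups were taken from the rat numbers and sample names in the heading of the count table. For 17 of 18 rats the title recorded with the separate file of that rat names another group, although the counts in the file are identical to those of the same rat number in the table (18 of 18). Every call below was lost when the rats were grouped by those titles. Between 10057787 and 16002410 read-pairs per rat lay on genes. Defining neuronal markers of the ganglion were present throughout, with a summed level of 9 pan-neuronal genes between 10554 and 12805 CPM (counts scaled by library total), and skeletal muscle markers summed to no more than 5.22 CPM in any rat. bPYX+GFP rat 57 and bPYX+NT3 rat 11 stood apart from the other rats, with the lowest shares of read-pairs that fell on no annotated gene (31.7% and 30.8%, against 32.5% to 34.6% in the other rats).

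Potassium channels set the resting potential of sensory neurons and end each action potential, and so govern how often an axon fires. Voltage-gated channels (Kcna to Kcnd, Kcnh, Kcnq) open on depolarization, and differ in speed and in where they sit along the axon. Silent subunits (Kcnf, Kcng, Kcns, Kcnv) act only by joining other pore subunits, chiefly those of the Kcnb genes. Inward rectifiers (Kcnj) and tandem-pore leak channels (Kcnk) act near rest, and Kcnj10 is best known in DRG from the satellite glia that wrap the neuronal cell bodies. Channels opened by intracellular calcium (Kcnma, Kcnn) or sodium (Kcnt) act after firing.

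Of the 89 rows, 73 exceeded 10 reads in 6 or more of the 18 rats. The other 16 were Kcna7, Kcna10, Kcnd3, Kcne1, Kcne5, Kcnh3, Kcnh4, Kcnk9, Kcnk15, Kcnk16, Kcnmb1, Kcnmb3, Kcnq1, Kcns2, Kcnv2 and 1 row of Kcnk18. Kcnd3 and Kcne5, for example, had no more than 4 reads in any rat, and Kcne1 and Kcnh3 no more than 1. By mean normalised read count, which is the read count scaled to the same effective library size in every rat, 12 of the 73 rows were at 1000 or more, 31 between 100 and 1000, and 30 under 100. The 10 highest rows held 59.5% of all normalised reads on Kcn rows. Among them were Kcnab1, Kcna1, Kcna2, Kcnd1, Kcna6, Kcns3, Kcnk1, Kcnq5 and Kcnq3. Read counts grow with transcript length, which was not corrected for, so these values give the precision of each gene and not an order of abundance between genes.

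All Kcn rows together took up 0.32 ± 0.0079% of the reads on genes in naïve rats, 0.331 ± 0.0198% with bPYX+GFP and 0.331 ± 0.0158% with bPYX+NT3 (SD, n = 6 each). The highest rat of all was rat 57 at 0.366%. Without it, the bPYX+GFP rats averaged 0.323 ± 0.0109% (n = 5), and the 3 groups overlapped with or without it. In bulk ganglia, fewer cells of a type and less RNA per cell cannot be told apart.

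The stretch of genome before the start of each gene was read from RefSeq promoter windows of the GRCr8 build, a later build than the Rnor_6.0 to which the reads were aligned. Of the 86 symbols, 59 had an entry, with 64 windows in all. Over the 250 bases before the start, the median GC content was 59.6% for Kcn windows and 51.2% for all 33469 windows. A GC box, searched as GGGCGG on both strands, was found in 46.9% of Kcn windows and in 30.5% of all windows, and the letters TATAAA, also on both strands, in 3.12% and 12.9%. The windows of 3 called genes show this range. Capitals mark GGGCGG or its reverse complement CCGCCC, and each sequence runs 5′ to 3′ on the strand of the gene.
Kcnj10, chr13:87334260-87334509, plus strand: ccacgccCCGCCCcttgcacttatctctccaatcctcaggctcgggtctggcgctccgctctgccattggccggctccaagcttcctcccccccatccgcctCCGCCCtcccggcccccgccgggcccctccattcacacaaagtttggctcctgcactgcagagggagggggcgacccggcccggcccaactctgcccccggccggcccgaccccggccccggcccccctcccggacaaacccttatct
Kcnq5, chr9:31891282-31891531, minus strand: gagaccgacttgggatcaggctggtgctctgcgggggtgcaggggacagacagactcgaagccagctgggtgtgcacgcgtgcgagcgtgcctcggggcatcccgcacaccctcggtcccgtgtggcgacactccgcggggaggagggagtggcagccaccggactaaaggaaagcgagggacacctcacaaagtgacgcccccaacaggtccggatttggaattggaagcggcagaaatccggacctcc
Kcnj16, chr10:96517074-96517323, plus strand: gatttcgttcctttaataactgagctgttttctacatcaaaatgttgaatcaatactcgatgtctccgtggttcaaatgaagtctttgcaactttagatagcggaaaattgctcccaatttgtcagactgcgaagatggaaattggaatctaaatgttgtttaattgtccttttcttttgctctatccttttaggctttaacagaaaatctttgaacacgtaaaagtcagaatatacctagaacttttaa
Kcnj10 and Kcnj16, whose products join in 1 channel, had windows with GC contents of 72.4% and 33.6% and with 2 matches and 0 matches, respectively. Kcnq5 lay at 65.2% with 0 matches. A match describes these letters only and shows no binding.

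**Figure D1:**
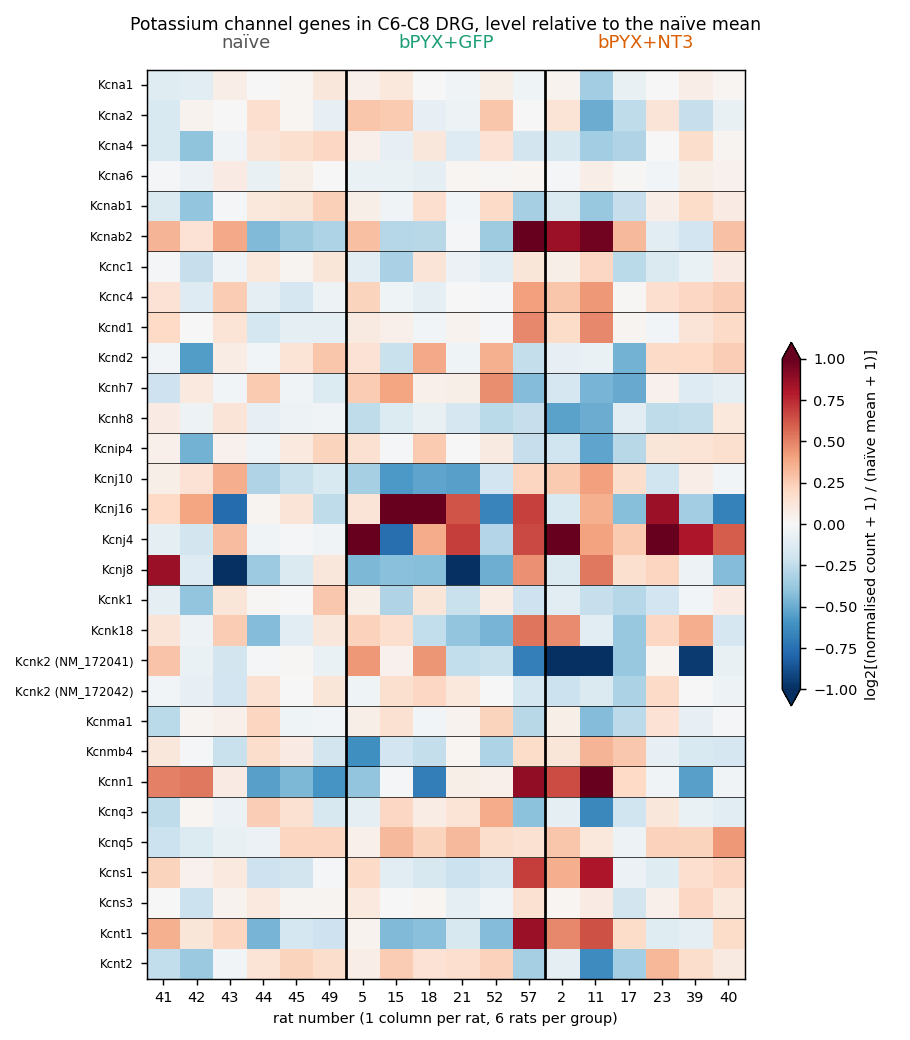
Level of 30 potassium channel rows named in the text (vertical axis, grouped by subfamily) in each of the 18 rats (horizontal axis, rat number), as log2 of the normalised read count plus 1 over the naïve mean plus 1; colours are clipped at −1 and 1. The columns of bPYX+GFP rat 57 and bPYX+NT3 rat 11 stand out, with 21 of all 73 rows in which both rats were the highest of their own group and 14 in which both were the lowest.

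Rats differed from each other within the groups. Over the 73 rows the median coefficient of variation among the 6 naïve rats was 15.1%, and over all 11821 rows that passed the same filter it was 12%. Among rows with a mean of 100 or more it was 12.9% for 43 Kcn rows and 9.84% for 8627 rows in all. Rat 57 was the highest bPYX+GFP rat in 29 of 73 Kcn rows (39.7%, against 37.9% of all rows) and rat 11 the highest bPYX+NT3 rat in 25 (34.2%, against 34.3%).

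In 21 Kcn rows (28.8%) both were the highest rat of their own group, among them Kcnab2, Kcnc4, Kcnd1, Kcnh2, Kcnn1, Kcns1 and Kcnt1. In 14 rows (19.2%) both were the lowest, among them Kcna1, Kcna4, Kcnab1, Kcng4, Kcnip4, Kcnma1, Kcnq3 and Kcnt2. Over all rows these shares were 29.2% each, so the split was present over the whole table. Rats 57 and 11 had the lowest shares of reads on no gene and also the highest shares of ambiguous reads (3.31% and 3.41%). A link between these shares and the split was not tested. The comparisons below were also fitted without these rats and with the share of reads on no gene as a covariate.

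The first comparison asks which potassium channel genes differ in rats with injury and control vector from unoperated rats. Of 70 Kcn rows tested, 3 passed an unadjusted p of 0.05 in edgeR's quasi-likelihood test (4.29%), against 3.25% of all 11601 genes. Kcnq5 and Kcnj16 were higher (2.86%, against 0.733% of all genes) and Kcnh8 was lower (1.43%, against 2.52%). No Kcn row passed after Benjamini-Hochberg adjustment with this test (smallest adjusted p = 0.9998), with edgeR's likelihood ratio test or with DESeq2, which called 2 and 3 Kcn rows before adjustment. The median log2 fold change was 0.034 over Kcn rows and 0.012 over all genes, and 62.9% of Kcn rows and 56.1% of all genes had a value above 0. Leaving out naïve rat 43 left 1 call, Kcnq5 (1.43%, against 2.37% of all genes).

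Kcnq5 encodes a subunit of the M current, a slow potassium current that holds back repetitive firing. Its lowest, median and highest normalised read counts were 1234, 1368 and 1665 in naïve rats, 1481, 1646 and 1793 with bPYX+GFP and 1386, 1674 and 1932 with bPYX+NT3. All 6 rats of each injured group lay above the naïve median, but 2 naïve rats lay within the range of the injured ones. It was higher in bPYX+GFP than in naïve rats (log2 fold change 0.22, SE 0.082, 95% interval 0.041 to 0.39, p = 0.0195, adjusted p = 0.9998), and 3 of 6 bPYX+GFP rats exceeded every naïve rat (two-sided exact permutation test, p = 0.0325). The call held in 12 of 12 fits that left out 1 rat.

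Kcnj16 encodes an inward rectifier subunit that joins the product of Kcnj10. Its counts were low, with 15.3, 28.2 and 35.3 as lowest, median and highest in naïve rats, 16.5, 42.5 and 61.2 with bPYX+GFP and 16.3, 22.3 and 48.9 with bPYX+NT3. In the bPYX+GFP group 4 rats exceeded every naïve rat while another lay near the naïve minimum. It was higher in bPYX+GFP rats (log2 fold change 0.63, SE 0.28, 95% interval 0.021 to 1.23, p = 0.0436, adjusted p = 0.9998), but the exact permutation test gave p = 0.123 and the call held in 4 of 12 fits without 1 rat. It was lost without naïve rat 43, 44, 45 or 49 or bPYX+GFP rat 15, 18, 21 or 57, and over the 12 fits the log2 fold change ran from 0.49 to 0.78 and p reached 0.112. The call was also lost with library size as the only scaling, in 1 fit over the 3 groups and with a replicate block.

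Kcnh8 encodes a voltage-gated channel of the ether-à-go-go family. Naïve rats had 168, 172 and 194 normalised reads at the lowest, median and highest, bPYX+GFP rats 147, 155 and 169, and bPYX+NT3 rats 123, 150.1 and 191. All bPYX+GFP rats but 1 lay below every naïve rat. It was lower in bPYX+GFP rats (log2 fold change −0.18, SE 0.076, 95% interval −0.35 to −0.02, p = 0.0302, adjusted p = 0.9998; exact permutation p = 0.00433). The call held in 8 of 12 fits without 1 rat. It was lost in the likelihood ratio test, in 1 fit over the 3 groups and with a replicate block. Without naïve rat 41 or 43 or bPYX+GFP rat 5 or 52 it did not pass, and the 12 log2 fold changes ran from −0.21 to −0.16 with p up to 0.0748. In bPYX+NT3 rats the difference from naïve rats did not pass (log2 fold change −0.24, edgeR p = 0.0516, adjusted p = 0.607, exact permutation p = 0.0303).

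**Figure D2:**
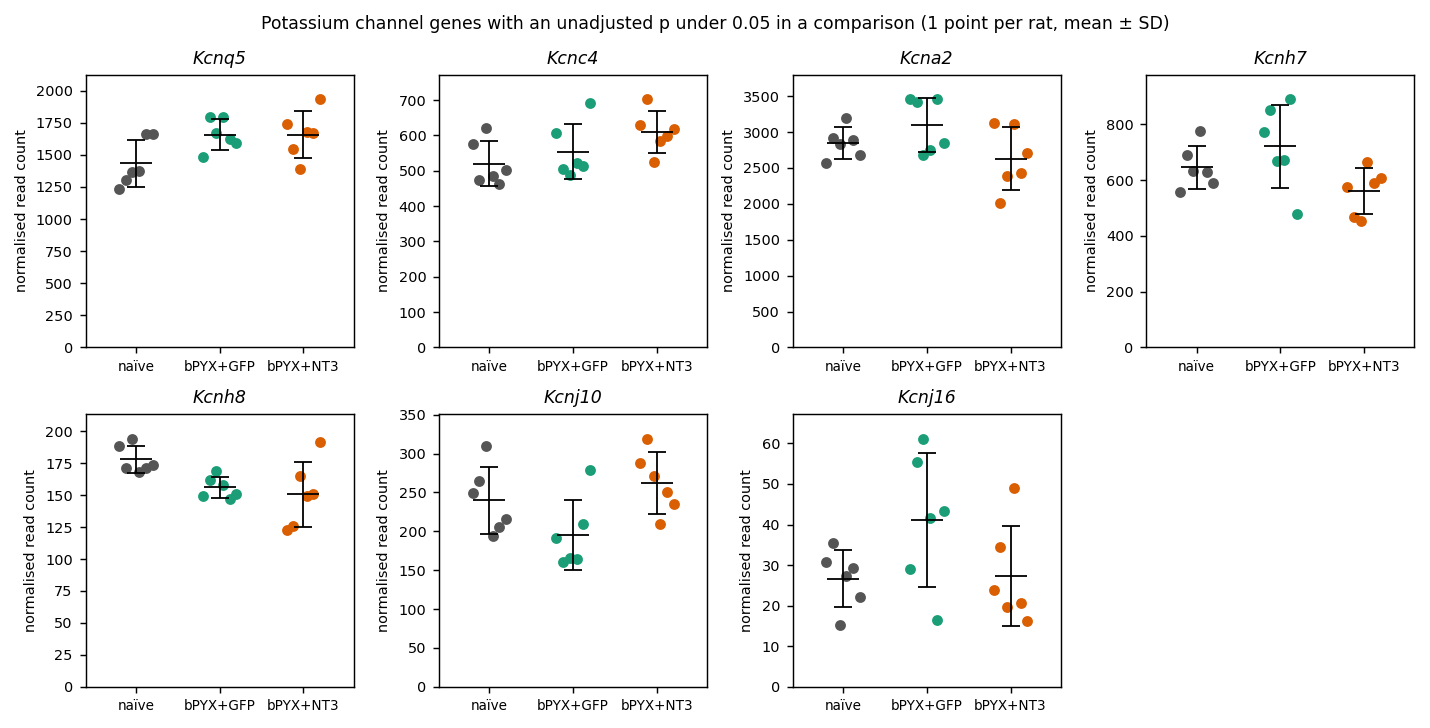
Normalised read count (vertical axis, from 0) of 7 potassium channel genes with an unadjusted p under 0.05 in at least 1 comparison, with 1 point per rat, 6 rats per group, and a bar with whiskers for the mean ± SD. In every panel the groups overlap; in the Kcnh8 panel, 5 of 6 bPYX+GFP rats lie below all naïve rats.

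The second comparison sets rats with injury and NT3 against unoperated rats. Of 70 Kcn rows, 3 passed an unadjusted p of 0.05 (4.29%), against 6.01% of all 11693 genes. All were higher in bPYX+NT3 rats, Kcnc4 and Kcnq5 among them, against 3.09% of all genes called higher and 2.92% called lower. None passed after adjustment with edgeR's quasi-likelihood test (smallest adjusted p = 0.607), nor with the likelihood ratio test or DESeq2, which called 3 and 6 Kcn rows before adjustment. The median log2 fold change was 0.01 over Kcn rows and 5e-04 over all genes. The count depended on single rats, and the share over all genes moved as well. Without naïve rat 41 or bPYX+NT3 rat 17, 8 Kcn rows were called (11.4% each, against 10.2% and 7.35% of all genes). Without bPYX+NT3 rat 23 or 39 there were 6 (8.57% each, against 11.9% and 8.78%), and without naïve rat 44 or bPYX+NT3 rat 2 or 11 there was 1 (1.43% each, against 3.42%, 3.72% and 3.14%). Under the same read filter applied over 18 rather than 12 rats, 7 of 73 rows passed (9.59%, against 6.05% of all genes), with Kcnj12 also higher and Kcnh8 lower. Kcnj4 (higher) and the minor row of Kcnk2 (lower) were called there too, but met the filter only because bPYX+GFP rats were counted. No naïve rat had more than 10 reads of Kcnj4, so its direction was favoured by the filter. The minor row of Kcnk2 had no more than 14 reads in a rat.

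Kcnc4 encodes a high-threshold voltage-gated channel that repolarizes the action potential quickly and then inactivates. Its lowest, median and highest counts were 464, 494 and 620.4 in naïve rats, 488, 517 and 691 with bPYX+GFP and 524, 609 and 702 with bPYX+NT3. Every bPYX+NT3 rat lay above the naïve median, and 2 exceeded every naïve rat. It was higher in bPYX+NT3 rats (log2 fold change 0.23, SE 0.089, 95% interval 0.04 to 0.42, p = 0.0211, adjusted p = 0.607; exact permutation p = 0.026), in 9 of 12 fits without 1 rat. Without naïve rat 42 or 45 or bPYX+NT3 rat 11 it did not pass, and the 12 values ran from 0.19 (without rat 11) to 0.29 with p up to 0.0513. Of its relatives, Kcnc1 and both rows of Kcnc2 had log2 fold changes between −0.18 and −0.009 and did not pass.

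Kcnq5 was higher in bPYX+NT3 rats too (log2 fold change 0.21, SE 0.092, 95% interval 0.014 to 0.41, p = 0.0377, adjusted p = 0.607), with 4 of 6 rats above every naïve rat (exact permutation p = 0.0584). The call held in 4 of 12 fits without 1 rat and was lost without naïve rat 41, 42, 43 or 44 or bPYX+NT3 rat 2, 23, 39 or 40, with log2 fold changes from 0.17 to 0.27 and p up to 0.0949. Kcnq5 was the only Kcn gene called in both comparisons with naïve rats, which share the naïve rats, and its difference between the injured groups had a log2 fold change of −0.0024 (95% interval −0.17 to 0.16).

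**Figure D3:**
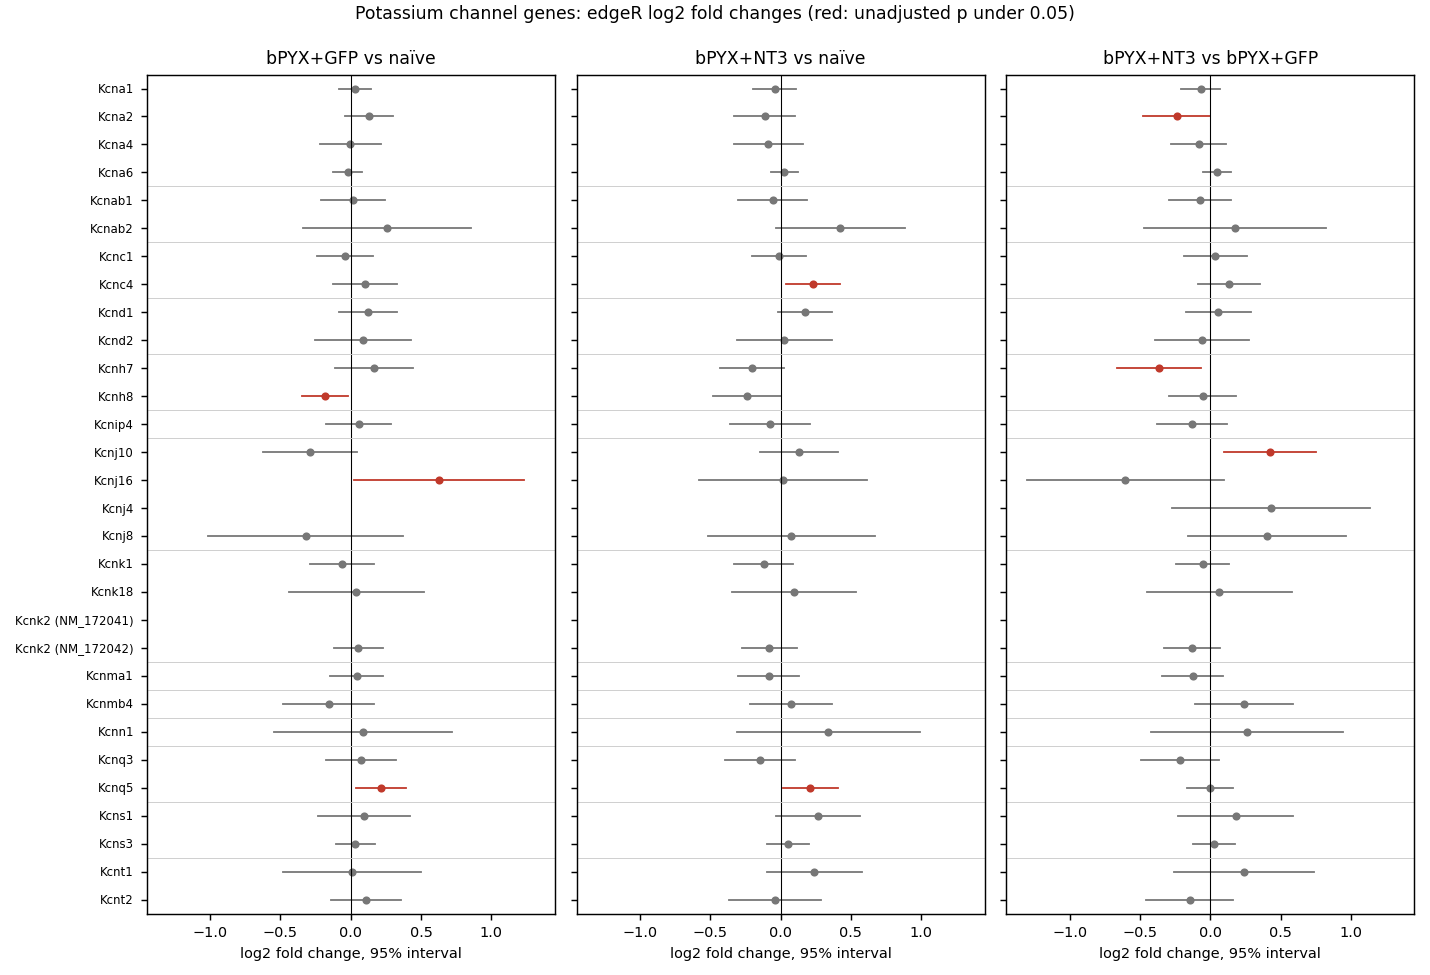
log2 fold change (horizontal axis) with its 95% interval for 30 potassium channel rows named in the text (vertical axis, grouped by subfamily) in the 3 comparisons, from edgeR with 6 rats per group; red marks an unadjusted p under 0.05 and an empty line a row that was not tested there. The red points are those of the called genes, and wide intervals belong to genes with few reads such as Kcnj4 and Kcnj16.

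The third comparison asks which genes differ with NT3 among injured rats. Of 72 Kcn rows, 3 passed an unadjusted p of 0.05 (4.17%), against 1.73% of all 11623 genes. Kcnj10 was higher in bPYX+NT3 rats (1.39%, against 1.08% of all genes) and Kcnh7 and Kcna2 were lower (2.78%, against 0.654%). No Kcn row passed after adjustment with edgeR's quasi-likelihood test (smallest adjusted p = 0.851), nor with the likelihood ratio test or DESeq2, which each called 3 Kcn rows before adjustment. The median log2 fold change was −5e-04 over Kcn rows and 0.0049 over all genes. The count depended on single rats. Without bPYX+GFP rat 57, 11 of 71 Kcn rows passed (15.5%), and 19.8% of all genes. Without bPYX+NT3 rat 2 or 23 it was 5 (7.04% and 6.94%, against 1.23% and 3.36% of all genes).

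Kcnj10 encodes the inward rectifier by which satellite glia take up potassium around neuronal cell bodies. Its lowest, median and highest counts were 194, 233 and 309 in naïve rats, 161, 178 and 278 with bPYX+GFP and 209, 261 and 319 with bPYX+NT3. Every bPYX+NT3 rat lay above the bPYX+GFP median, and rat 57 was the highest bPYX+GFP rat. It was higher in bPYX+NT3 than in bPYX+GFP rats (log2 fold change 0.42, SE 0.15, 95% interval 0.094 to 0.75, p = 0.0154, adjusted p = 0.851; exact permutation p = 0.0238). The call held in 12 of 12 fits without 1 rat. Their log2 fold changes ran from 0.35 (without rat 11) to 0.56 (without rat 57), with edgeR p up to 0.0377. With the share of reads on no gene as a covariate the log2 fold change between these groups was 0.3071. Without rats 57 and 11 together, a fit chosen after seeing the data, it was 0.496. Against naïve rats neither injured group passed (log2 fold changes −0.29 and 0.13, edgeR p = 0.0876 and 0.331, exact permutation p = 0.0952 and 0.338). In some alternative fits Kcnj10 was lower in bPYX+GFP than in naïve rats and passed before adjustment. It passed without rat 57 (log2 fold change −0.431). It also passed with the share of reads on no gene (−0.3256) or the pan-neuronal level (−0.4061) as a covariate. The share of all genes called rose in these fits too, from 3.25% to 5.16%, 7.31% and 7.59%. With a replicate block Kcnj10 did not pass (−0.2977). Kcnh7 was newly called higher without rat 57 (0.2568) and with the pan-neuronal covariate (0.2266). Kcna2 was newly called higher with the pan-neuronal covariate (0.1587).

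Kcnj10's partner Kcnj16 had a log2 fold change of −0.61 between the same groups (95% interval −1.30 to 0.094, edgeR p = 0.0843, exact permutation p = 0.141) and did not pass. Of the satellite glia markers, 0 of 6 tested were called between the injured groups, with a median log2 fold change of −0.035 and summed levels of 2635 to 3178 CPM in bPYX+GFP and 2575 to 3002 CPM in bPYX+NT3 rats. Of the myelinating Schwann cell markers, 0 of 9 were called, with a median of 0.21. The part of either cell type in the Kcnj10 value was not tested. Kcnj10 and Kcnj16 belong to a list of 5 glial and vascular inward rectifiers, all tested, in which the other 3 were not called in any comparison.

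Kcnh7 encodes a channel of the ERG group, which slows repeated firing. It ran at 557, 631 and 774 normalised reads (lowest, median, highest) in naïve rats, 478, 721 and 889 with bPYX+GFP and 454, 583 and 666 with bPYX+NT3. All 6 bPYX+NT3 rats lay below the bPYX+GFP median, while 1 bPYX+GFP rat, rat 57, was low as well. It was lower in bPYX+NT3 rats (log2 fold change −0.37, SE 0.14, 95% interval −0.66 to −0.069, p = 0.0193, adjusted p = 0.851; exact permutation p = 0.0498), in 11 of 12 fits without 1 rat. It did not pass without bPYX+GFP rat 52, the highest bPYX+GFP rat, where the log2 fold change was −0.299 and the edgeR test missed the threshold.

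Kcna2 encodes a subunit of the channels beside the nodes of Ranvier in myelinated axons. The lowest, median and highest counts were 2563, 2860.2 and 3199.8 in naïve rats, 2685, 3132 and 3455 with bPYX+GFP and 2016, 2569 and 3128 with bPYX+NT3. Again all bPYX+NT3 rats lay below the bPYX+GFP median, with the ranges overlapping. It was lower in bPYX+NT3 rats (log2 fold change −0.24, SE 0.11, 95% interval −0.48 to −0.0035, p = 0.0471, adjusted p = 0.851), but the exact permutation test gave p = 0.0758 and the call held in 5 of 12 fits without 1 rat. It was lost without bPYX+GFP rat 5, 15 or 52 or bPYX+NT3 rat 11, 17, 39 or 40, with log2 fold changes from −0.29 to −0.18 and p up to 0.1003. It was also lost with library size as the only scaling, with the share of reads on no gene as a covariate, with a replicate block and without rats 57 and 11 together.

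The remaining genes that define a role in sensory neurons did not pass in any comparison, and their intervals state how large a difference these rats leave room for. Kcna1 pairs with Kcna2 beside the nodes. It had means of 3753 ± 243, 3813 ± 153 and 3639 ± 358 normalised reads in naïve, bPYX+GFP and bPYX+NT3 rats (SD, n = 6 each). The 95% interval of its log2 fold change between the injured groups was −0.21 to 0.067. Kcnab1, an auxiliary subunit of the Kcna channels, had 5793 ± 874, 5849.8 ± 734 and 5569 ± 820.0. Kcna6 had the narrowest interval of all Kcn rows in each comparison, −0.12 to 0.081, −0.07 to 0.12 and −0.049 to 0.15 in the order given above.

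Of large-fibre voltage-gated genes and their subunits, among them Kcna1, Kcna2, Kcna6, Kcnab2, Kcnc1, Kcng4, Kcns1 and Kcns3, 9 of 9 were tested in each comparison. None was called in the first comparison, and Kcna2 was called lower in the third. Kcnab2, an auxiliary subunit of these channels, had the highest log2 fold change of a Kcn row between bPYX+NT3 and naïve rats without passing (0.42, 95% interval −0.035 to 0.88, edgeR p = 0.0678, exact permutation p = 0.139). Its counts ranged from 629 to 1109.6 in naïve, from 667 to 2085 in bPYX+GFP and from 748 to 1671 in bPYX+NT3 rats, with rats 57 and 11 highest. Kcns1 was likewise highest in these rats, and had log2 fold changes of 0.092, 0.27 and 0.18 in the 3 comparisons.

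Among genes for A-type channels of small fibres and their partners (Kcna4, Kcnd1, Kcnd2, Kcnc4, Kcnip3, Kcnip4), Kcnc4 was the only one called of 6 tested. Kcna4, which carries a fast inactivating current in nociceptors, had means of 1040.4 ± 159, 1035 ± 97.9 and 978 ± 137 in naïve, bPYX+GFP and bPYX+NT3 rats. Kcnd1 had 2502 ± 256, 2706 ± 389 and 2819.9 ± 367, and Kcnd2 89.9 ± 16.3, 95.4 ± 18.2 and 91.4 ± 16.2. All 6 rats of either injured group lay above the naïve median for Kcnd1, but neither difference passed (edgeR p = 0.227 and 0.0692, exact permutation p = 0.323 and 0.0952). Kcnip4, a calcium-binding partner of the Kcnd channels, had log2 fold changes of 0.056, −0.075 and −0.13.

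Of the delayed rectifiers of the cell body and the silent subunits that join them, 9 rows were tested, and 0 were called in any comparison. Kcnc1, a fast delayed rectifier, had means of 346 ± 29.7, 334 ± 39 and 342 ± 40.7 in naïve, bPYX+GFP and bPYX+NT3 rats. Kcns3, a silent subunit of large-fibre neurons, stayed between 1826 and 2443 in all 18 rats.

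In the M current group, 3 rows were tested. Kcnq3, another subunit of M channels, had means of 1078 ± 141, 1129 ± 201 and 972 ± 157. It did not pass in any comparison, with a log2 fold change between the injured groups of −0.22 (95% interval −0.49 to 0.06). Kcnq5 was the called member of this group.

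Of 8 tested rows for calcium- and sodium-activated channels, 0 were called in any comparison. Kcnma1, the pore of the large-conductance calcium-activated channel, had means of 796 ± 84.7, 817 ± 94 and 749.8 ± 108, and its neuronal auxiliary subunit Kcnmb4 58.3 ± 6.64, 51.7 ± 9.94 and 61.2 ± 9.7. Kcnn1, a small-conductance channel, ranged from 20.01 to 44.6 in naïve, 18.6 to 57.5 in bPYX+GFP and 20.7 to 68.7 in bPYX+NT3 rats. The sodium-activated Kcnt1 and Kcnt2 went opposite ways in rat 57, which was the highest of its group for Kcnt1 and the lowest for Kcnt2. Their log2 fold changes between the injured groups were 0.24 and −0.15.

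The tandem-pore leak channels likewise gave 0 calls in each comparison, of 8 rows tested against naïve rats and 9 between the injured groups. Kcnk1 had means of 1698 ± 254, 1618 ± 206 and 1559.6 ± 151. The main row of Kcnk2, a channel opened by stretch and heat, had 376 ± 33.4, 389 ± 38 and 356 ± 44.8, and its other row, at no more than 14 reads in a rat, was tested in none of the comparisons under the main filter. The tested row of Kcnk18, a leak channel of sensory neurons, had 14.4 ± 2.44, 14.5 ± 4.35 and 15.4 ± 3.75. How reads were divided between rows of the same gene is uncertain.

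Sorted by subfamily, 20 symbol prefixes had members and all 20 had at least 1 tested row. The Kcnj subfamily was the most numerous, with 15 rows, all tested in at least 1 comparison. Its log2 fold changes spread from −0.32 (Kcnj8) to 0.63 (Kcnj16) between bPYX+GFP and naïve rats, and from −0.61 (Kcnj16) to 0.43 (Kcnj4) between the injured groups. These 3 extreme genes had few reads, at most 51 in a rat, and Kcnj16 in the first comparison was the only one called. In the Kcnh subfamily, Kcnh8 was called in the first comparison and Kcnh7 in the third, of 6 rows tested. Calls otherwise fell in Kcna, Kcnc and Kcnq, and the other 15 subfamilies had 0 calls. Over all genes 3.25%, 6.01% and 1.73% were called in the 3 comparisons. With so few rows each, 0 calls do not set a subfamily, or a role group above, apart from these shares. Among the 10 subfamilies with more than 2 tested rows, median log2 fold changes ran from −0.086 (Kcnk) to 0.15 (Kcnq), both in the second comparison.

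**Figure D4:**
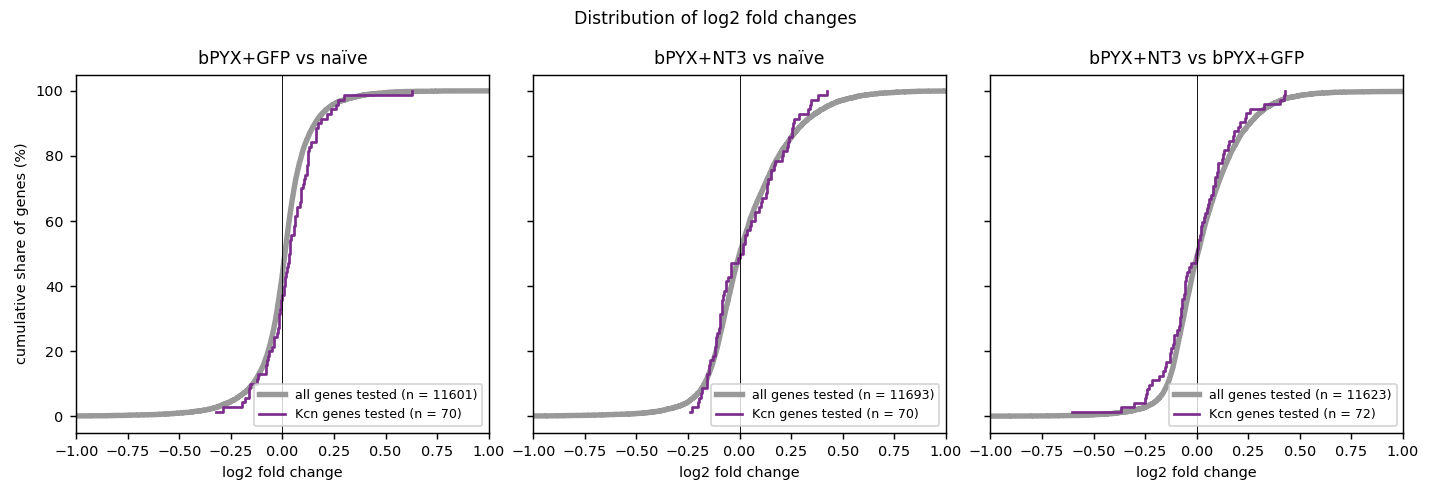
Cumulative share of genes (vertical axis, percent) by log2 fold change (horizontal axis) for all genes tested (grey) and the Kcn rows tested (purple) in each comparison. Both lines cross the midpoint close to 0, with medians of 0.034, 0.01 and −5e-04 against 0.012, 5e-04 and 0.0049.

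As a set, the members were compared with all genes tested by size of change. The median absolute log2 fold change of Kcn rows was 0.081, 0.13 and 0.1 in the 3 comparisons, and that of all genes 0.062, 0.114 and 0.097. The 95% interval lay wholly within a 1.5-fold change in either direction for 55 of 70, 53 of 70 and 46 of 72 Kcn rows (78.6%, 75.7% and 63.9%), against 80.5%, 74.7% and 75.2% of all genes. It lay within a 2-fold change for 68 of 70, 69 of 70 and 69 of 72 rows. In no comparison did all 6 rats of 1 group lie above or below all 6 of the other for a Kcn row, against 0.267%, 0.257% and 0.0516% of all genes.

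Genes outside the Kcn prefix that anchor, traffic or modulate these channels were counted from a list of 20, of which 16 had a row and 15 were tested. Amigo1, which encodes an adhesion protein that accompanies the Kcnb channels, was the only one called, and was higher in bPYX+NT3 than in naïve rats (log2 fold change 0.27, SE 0.11, adjusted p = 0.607 by edgeR's quasi-likelihood test). Its lowest, median and highest counts were 399, 452 and 552 in naïve rats and 439.98, 534 and 712 in bPYX+NT3 rats. The ranges overlapped. A single call among 15 is near the share of all genes called between bPYX+NT3 and naïve rats (6.01%). None of the 15 passed between bPYX+GFP and naïve rats or between the injured groups.

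Markers of other cells of the ganglion also passed before adjustment. Between bPYX+GFP and naïve rats, 5 of 9 markers of myelinating Schwann cells were lower (median log2 fold change −0.32), with summed levels of 2571 to 3536 CPM against 3126 to 4886 CPM, and 3 of 4 fibroblast markers were lower (median −0.29), with 1928 to 2506 CPM against 2113 to 2847 CPM. Between bPYX+NT3 and naïve rats these were 3 of 9 (median −0.18, 3023 to 3622 CPM in bPYX+NT3 rats) and 3 of 4 (median −0.31, 1536 to 2711 CPM). Of the pan-neuronal markers 0 of 8 tested were called in each comparison, with medians of 0.095, 0.031 and −0.013. Markers of nociceptors (0 of 6), of large-fibre proprioceptors (0 of 3) and of macrophages (0 of 5) were not called either. Among endothelial and mural markers 1 of 6 (Flt1, higher), among satellite glia markers 1 of 6 (lower) and among spinal cord glia markers 1 of 3 (Mog, lower) were called between bPYX+NT3 and naïve rats. Single calls in lists this short cannot be set apart from the shares over all genes. The part of these other cells in the potassium channel values was not tested, since only the pan-neuronal level was used as a covariate. With it Kcnj16 was no longer called, although its log2 fold change hardly moved (0.63 to 0.6014). The calls of Kcnq5, Kcnh8, Kcnc4, Kcnj10, Kcnh7 and Kcna2 were kept. In the first comparison calls rose from 3 to 7, with Kcna2, Kcnh7 and Kcnt2 newly higher and Kcnj10 and Kcnt1 newly lower. The share of all genes called there rose too, from 3.25% to 7.59%.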

How the data were processed

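Stranded TruSeq libraries of poly(A) RNA, 1 per rat (C6-C8 DRG, 18 rats), were sequenced as read pairs. According to the methods, the authors aligned reads to the rat genome Rnor_6.0 with TopHat2, removed duplicates with Picard and counted reads per RefSeq identifier with HTSeq. The deposited values are raw counts per RefSeq identifier, 1 column per rat, and were deposited by the authors without normalisation. All columns of the table were mapped to a rat (0 not used). Shares of read pairs outside the gene rows (on no feature 33.3 ± 0.939%, ambiguous 2.95 ± 0.166%, multiply aligned 21.1 ± 0.799%, SD over 18 rats) stayed out of library sizes. Symbols came from a RefSeq table, with 14193 of 15075 identifiers matched.

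Each pair of groups was fitted on the whole table with edgeR 4.0.16 (R 4.3.3), with trimmed-mean normalisation, the quasi-likelihood F-test and a filter for over 10 reads in 6 or more of 12 rats, and p-values were adjusted by Benjamini and Hochberg over all genes tested. A gene was called at an unadjusted p under 0.05. Normalised read counts share 1 scaling over 18 rats. Exact permutation tests on single genes were two-sided, over all splits of 12 rats, and could not give p under 0.00216. The p-values measure spread between rats. Counting error, which the intervals include, is largest for genes with few reads. The test was checked on simulated counts with planted 2-fold changes, drawn independently for each gene. That check does not cover smaller differences, such as most of those reported here, or outlying rats.

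The members and gene lists were chosen with earlier results of these data known. Named genes were those called in a comparison, the 10 with the highest mean CPM over 18 rats, those that define a role in DRG, the lowest and highest log2 fold changes, and called partners, and some of these genes are not reported here. Alternatives were DESeq2 1.42.0, a likelihood ratio test, other scalings and filters, 1 fit over 3 groups, covariates, the grouping by file titles and leaving out each rat. The replicate block without the titles and the fit without rats 57 and 11 were added after seeing the data. Figures were drawn with matplotlib 3.10.9 in Python 3.11.15.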

Additional observations from a re-analysis of the deposited data

Results flagged for a closer look

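In 12 of 96 groups of 6 rats examined, 1 rat lay farther from the others than Dixon's 95% limit allows. For a single group the limit is passed in about 1 in 20 by chance. That rate cannot judge this count, since the groups share the same 18 rats. Some genes were also named for being called or extreme, or had few reads. In 7 of the 12 the rat was bPYX+GFP rat 57. It was high for Kcnab2 (2085 normalised reads, against 667 to 1054 elsewhere in its group), Kcnd1 (3485, against 2459 to 2662), Kcns1 (1127, against 600.5 to 797), Kcnt1 (629, against 254 to 354), Kcnn1 (57.5, against 18.6 to 32) and Kcnj8 (32.7, against 10.7 to 17.4). It was low for Kcnt2 (605, against 797 to 905).

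The remaining flags were spread over other rats. bPYX+NT3 rat 11 was low for Kcna1 (2951, against 3562 to 3920). Naïve rat 42 was low for Kcns3 (1826, against 2124 to 2274). Among genes with few reads, bPYX+GFP rat 15 was high for Kcnd3 (4.34, against 0 to 1.33), naïve rat 43 for Kcnj4 (10.2, against 6.92 to 7.95) and naïve rat 41 for the minor row of Kcnk2 (13, against 9.15 to 10.6). The 3 genes called between the injured groups are listed here too, because their differences from naïve rats differed between the vectors by log2 fold changes of 0.42 (Kcnj10), −0.37 (Kcnh7) and −0.24 (Kcna2), each by the test between those groups given above.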

How the results depend on the processing

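The median log2 fold change over Kcn rows moved by less than 0.0668 in every alternative. This limit is the SD within groups of the median Kcn log2 level of single rats, and is lenient for a difference between group means. Further, 0 Kcn rows passed after adjustment in any of the 82 fits (smallest adjusted p = 0.102). Leaving out 1 rat at a time, the median log2 fold change ran from −0.008 to 0.0588 (bPYX+GFP against naïve), −0.0255 to 0.0368 (bPYX+NT3 against naïve) and −0.0316 to 0.0359 (bPYX+NT3 against bPYX+GFP). The number of calls ran from 1 to 4, 1 to 8 and 2 to 11. Against 3 calls each, the first comparison gave 1 with 1 fit over 3 groups (3.06% of all genes), 6 with the share of reads on no gene (8.57%, all genes 7.31%) and 7 with the pan-neuronal level as a covariate (10%, all genes 7.59%). The second gave 6 with DESeq2, 5 with its size factors, 5 without a filter, 7 with the filter over 18 rats, 5 with edgeR's own filter and 6 with 1 fit over 3 groups, where all genes ranged from 4.96% to 7%. The third gave 7 without rats 57 and 11, where 12.7% of all genes passed. Grouped by the file titles, the first comparison gave 1 call without a block and 1 with it (1.39% each, against 1.49% and 0.779% of all genes). The third gave 1 without a block (1.43%, against 2.26% of all genes).

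Replicate numbers are shared across groups by label only. Correlations of same-numbered rats' deviations ran from −0.41 to 0.53, and 4 of 18 matched best with their own number. With a replicate block, 1 Kcn row was called in the first comparison (1.43%, against 2.72% of all genes). In the second, 14 were called (20%, against 25.3% of all genes).

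Reversals came with the pan-neuronal covariate for Kcnt1 (−0.22, first comparison) and otherwise with the title grouping. Under the latter, log2 fold changes became 0.17 (Kcnh8), −0.2046 (Kcnj16) and −0.0099 (Kcnq5) in the first comparison, −0.078 (Kcnc4) and −0.053 (Kcnq5) in the second, and 0.13 (Kcna2), 0.081 (Kcnh7) and 0.19 (Kcnk1) in the third. With the block added they were 0.17 (Kcnh8), −0.19 (Kcnj16) and −0.022 (Kcnq5), then −0.0815 (Kcnc4), −0.51 (Kcnj16) and −0.052 (Kcnq5), then 0.13 (Kcna2), 0.16 (Kcna4), 0.061 (Kcnh7) and 0.1952 (Kcnk1). The title grouping places other rats in each group. Causes of the other shifts were not tested. Few reads limited Kcnj4, Kcnj8, Kcnj16 and Kcnk18.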
